A study of Mytilus galloprovincialis with 16 samples.

Results

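The digestive gland transcripts of male and female mussels were compared at gonadal stage 2, the stage at which the methods place gonad development, on the 4 arrays whose titles give that stage, out of 16 arrays in the series. The species was Mytilus galloprovincialis, sampled as untreated wild animals from Bizerta Lagoon, Tunisia. The labels date stage 2 to January, and they and the methods differ on the year. Each array carried RNA of a single male labelled with one dye and RNA of a single female labelled with the other, described as biological replicates with 1 replicate per array, so that males (n = 4) were set directly against females (n = 4). Males carried Cy5 and females Cy3 on replicates 1 and 2, and males carried Cy3 and females Cy5 on replicates 3 and 4. Age was not given for either sex, and each stage was sampled in a month of its own, so that stage and month cannot be told apart. Every direction below rests on the sexes given in the labels.

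The digestive gland of a mussel is the organ in which food is digested and absorbed, and it also holds reserves. Mussels have separate sexes, and the gonad grows into the mantle in the months before spawning, while reserves of other tissues are drawn on for the making of gametes. In a dual-colour array both RNA samples compete for the same spotted cDNA clone, and the ratio of the dyes at a spot measures the relative abundance of a transcript in the 2 samples. In RNA from a whole organ, fewer cells of a type and less RNA per cell cannot be told apart. The array held 1920 clones with 2 spots each. Unless stated otherwise, each ratio is the log2 of male over female signal after loess normalisation within the array. A value above 0 thus stands for more transcript in males relative to clones of similar brightness on that array. The files used here pair no clone with a gene, so that clones are given by their identifiers, no gene role can be stated, and the tissue could not be checked against marker genes.

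The signal of each sex was taken first, since a ratio has meaning only where at least 1 sex is measured. Spots were taken as above background where the foreground lay more than 2 SDs of the local background over that background. In replicates 1 to 4, males were above background on 40.5%, 29.6%, 19.8% and 27.5% of clone spots, against 49.1%, 56.4%, 41.7% and 41.8% for females. Fewer spots passed in males on 4 of 4 arrays, whichever dye the males carried. The mean difference was -17.9 percentage points (SD 8.01, n = 4 arrays), with p = 0.125 in an exact two-sided paired permutation test, the smallest p that 4 arrays allow. At stages 1, 3 and 4 males had fewer spots above background on 1, 2 and 1 of 4 arrays. At stage 4 that array was replicate 2 (39.8% in males, 42.4% in females). The fit below counts it with replicate 4 (38.6% and 37.9%) as 1 sample. Before loess the median log2 ratio over all clone spots was -0.39, -0.12, 0.03 and 0.15 on stage 2 replicates 1 to 4, and over spots above background in both sexes it was -0.42, -0.12, -0.32 and -0.19, below 0 on 4 of 4 arrays. No spot was saturated. The median signal above local background was 48, 44, 52 and 63 intensity units in males, against 100, 65, 24 and 29 in females. It was higher in the sex that carried Cy3 on 4 of 4 arrays, as was the median local background. On replicates 3 and 4 males thus had the higher median signal but fewer spots above background.

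Of the 1920 clones, 346 were above background in both sexes on all 4 arrays and 581 in neither sex on any. Females were above background on more arrays than males for 817 clones, and males on more arrays than females for 76. The asymmetry was plainest at the extremes. Females were above background on all 4 arrays, and males on none or 1, for 143 clones, while 0 clones had males above background on all 4 arrays and females on none or 1. For these clones the size of a ratio is limited by the signal that was not measured.

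At stage 2, 32 of the 1920 clones differed between the sexes (1.67%), 17 higher in males (0.885%) and 15 lower (0.781%). The test was limma's moderated test in a fit of all stages, with Benjamini-Hochberg adjustment over all clones at a threshold of 0.05. Its p-values rest on a spread shared over the stages, whereas the SD given with a clone's mean is that of the stage alone. The 17 clones had a median of 0.82 and the 15 a median of -0.64 on the log2 scale, against 0.04 for all clones. Of the 32, 3 had a mean over 2-fold, whereas 54 of all clones did. An unadjusted p under 0.05 was reached by 349 clones, 186 higher and 163 lower in males, and the smallest adjusted p was 0.0169, shared by 9 clones. The last clone past the threshold had an adjusted p of 0.0473, and the next one 0.0619.

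All 32 clones had 1 sign on all 4 arrays. That was so for 471 of all clones (24.5%), 241 of them higher in males and 230 lower. The 32 were selected by a test of these same 4 values, which favours 1 sign, so that their shared sign is no separate evidence. The 17 higher clones had median log2 ratios of 0.40, 0.78, 0.67 and 0.96 on replicates 1 to 4. Their ratios ranged from 0.06 to 1.05 on replicate 1 and from 0.10 to 2.68 on replicate 4, and replicate 1 gave the smallest of the 4 values for 10 of the 17 clones. The 15 lower clones had medians of -0.70, -1.16, -0.62 and -0.29 on replicates 1 to 4. Replicate 2 held the ratio farthest from 0 for 14 of them and replicate 4 the ratio closest to 0 for 12. For all 15 the ratio lay farther from 0 where males carried Cy5 (median of the orientation means -0.81) than where they carried Cy3 (median -0.42). For the 17 higher clones those medians were 0.61 and 0.93. Of these 17, 6 lay farther from 0 where males carried Cy5, as did 985 of all 1920 clones. Where males carried Cy3, the lowest mean of any clone on the array was -0.65.

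**Figure D1:**
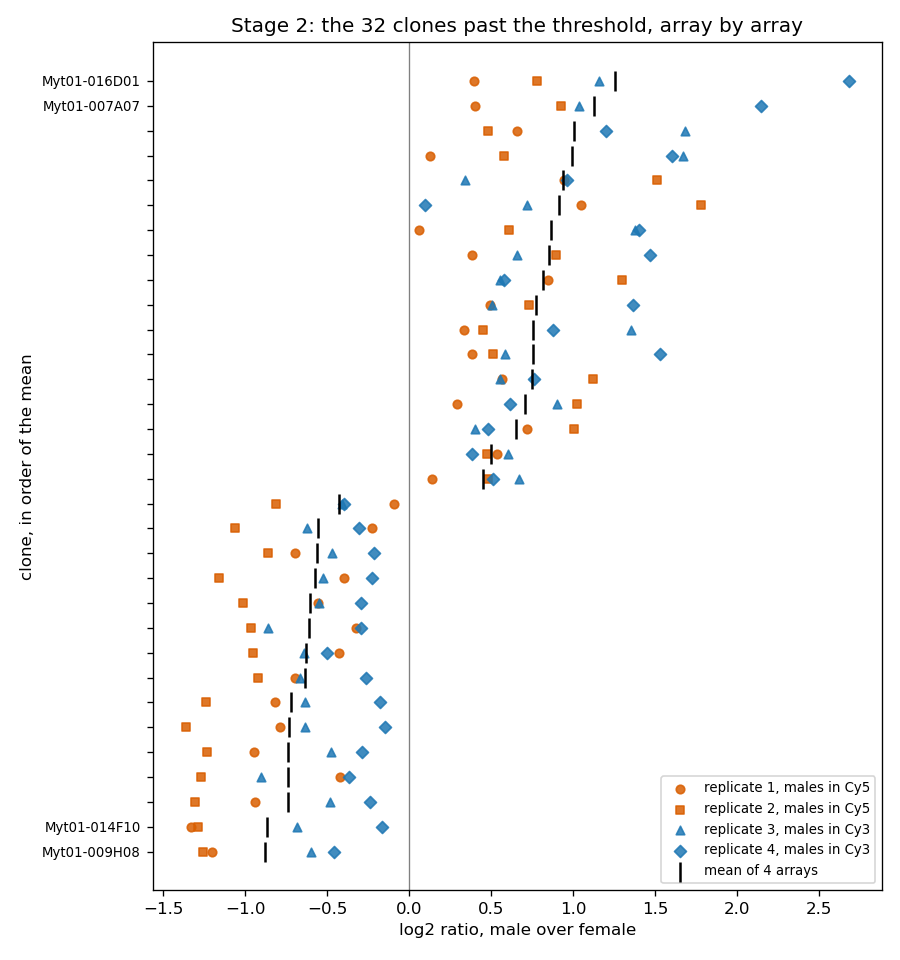
Log2 ratio of male over female (horizontal axis) for the 32 clones past the threshold at stage 2, in order of their mean, with 1 symbol per array (orange, males in Cy5; blue, males in Cy3) and a black bar for the mean of 4 arrays. The 17 higher clones lie above 0 and the 15 lower clones below 0 on all 4 arrays, and the mean of the orange arrays of each lower clone lies farther from 0 than that of the blue arrays. The clones were selected on these values, so their shared sign is no finding. The 4 clones with values of each sex in the text are labelled.

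Clone Myt01-016D01 had the largest ratio among the 17. Its log2 ratios were 0.39, 0.78, 1.15 and 2.68 on replicates 1 to 4, and both sexes were above background on all 4 arrays. Before normalisation its signal above local background was 68, 148, 147.5 and 1190.5 intensity units in males, against 87, 93, 27 and 213 in females. Males thus had the brighter spot on 3 of 4 arrays before loess and on 4 of 4 after it. The mean of 1.25 ± 1.00 (SD, n = 4) is a 2.38-fold excess in males with a limma adjusted p of 0.0233, and replicate 4 lay more than 1 SD above every other array. That p rests on the shared spread (SE 0.25). The SD of this clone was far smaller at stages 1, 3 and 4 (0.04, 0.14 and 0.06) than at stage 2, so that the p does not measure the stage 2 spread. Clone Myt01-007A07 had log2 ratios of 0.40, 0.93, 1.04 and 2.14. Its signal was 168.5, 325.5, 187 and 1044.5 units in males, against 190.5, 196.5, 72 and 224 in females, again with both sexes above background throughout. The mean of 1.13 ± 0.73 (SD, n = 4) is a 2.18-fold excess in males with a limma adjusted p of 0.0323. In both clones replicate 4 was the highest array and replicate 1 the lowest.

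Clone Myt01-009H08 had log2 ratios of -1.20, -1.26, -0.60 and -0.46 on replicates 1 to 4. Males were not above background on any array, with 30.5, 30, 40 and 52 units, whereas females were above it on all 4 with 234.5, 206.5, 62.5 and 57.5 units. The mean was -0.88 ± 0.41 (SD, n = 4) with a limma adjusted p of 0.0221. With the male signal known only as a limit, the estimated bound was 1.50-fold lower in males. The bound sets the female mean against, per array, the male value or, where that is lower, the dimmest signal of any clone above background, after normalisation of each channel. The clone's own local background does not enter, so that the bound is an estimate and not a guaranteed limit. Clone Myt01-014F10 had log2 ratios of -1.33, -1.29, -0.69 and -0.17. Its signal was 56, 69.5, 82 and 144 units in males, above background on replicate 4 alone, against 345, 342, 185.5 and 185 units in females. The mean was -0.87 ± 0.55 (SD, n = 4) with a limma adjusted p of 0.0446. In both clones the 2 arrays with males in Cy5 held the ratios farthest from 0.

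**Figure D2:**
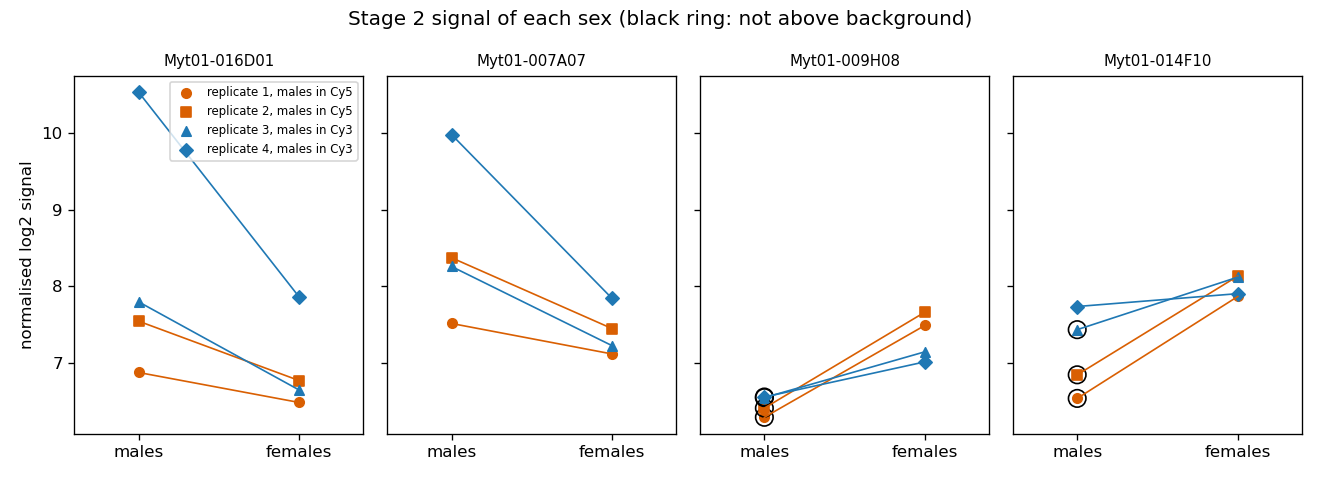
Normalised log2 signal (vertical axis) of males and females at stage 2 for 4 clones, with lines joining the sexes of 1 array (orange, males in Cy5; blue, males in Cy3) and a black ring round values not above background. Male values lie above female values on 4 of 4 arrays for Myt01-016D01 and Myt01-007A07, and below them on 4 of 4 for Myt01-009H08 and Myt01-014F10, where most male values were not above background. The clones were selected to have 1 sign on all 4 arrays.

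None of these 4 calls held without replicate 2 (limma adjusted p between 0.0791 and 0.169) or without replicate 3 (between 0.0572 and 0.0901). Leaving out replicate 1 further ended those of Myt01-009H08 (0.0614) and Myt01-014F10 (0.112). Myt01-007A07 lost its call without replicate 4 (0.0642), and also without replicate 4 of stage 1 (0.0506) or replicate 1 of stage 3 (0.0531), which share the estimate of the spread. Myt01-014F10 further lost its call without replicate 1 or 4 of stage 1, any of replicates 1 to 3 of stage 3 or any replicate of stage 4 (0.0550 to 0.0662). All 4 ended when stage 2 was fitted alone (0.385 for each), with no background correction (0.0612 to 0.0717) and with a random block for arrays that share stage and orientation (0.136 to 0.209). Plain subtraction ended the calls of Myt01-007A07, Myt01-009H08 and Myt01-014F10 (0.103 each). Scaling between arrays (0.0523 and 0.0858) and array weights (0.0648 and 0.0573) ended those of Myt01-007A07 and Myt01-014F10. Not every setting is listed here. Of 36 alternatives, 6 ended the call of Myt01-016D01, 13 that of Myt01-007A07, 9 that of Myt01-009H08 and 20 that of Myt01-014F10.

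The 2 sexes were also counted by detection among the 32 clones. Of the 17 higher clones, 7 were above background in both sexes on all 4 arrays, with a median log2 ratio of 0.86, against 0.76 for the other 10. For 1 of the 17, females were above background on no array and males on 1, so that no fold is given. Of the 15 lower clones, 14 had females above background on all 4 arrays and 2 had males above it on all 4. Males were above background on no array or on 1 for 7 of the 15, and on none for 3. The estimated bounds of these 3 were 1.50-, 1.44- and 1.22-fold lower in males, the last with females above background on 3 of 4 arrays. All calls lay among the brighter clones. When the 1920 clones were ranked by mean brightness in 4 classes of 480, the dimmest 2 classes held no call, the next class held 8 higher and 6 lower clones and the brightest 9 and 9.

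The count of clones depended on the arrays and on the model. It was 41, 1, 6 and 41 without stage 2 replicates 1, 2, 3 and 4, with 32 higher and 9 lower clones without replicate 1 and 12 higher and 29 lower without replicate 4. In limma, 0 clones were called when stage 2 was fitted alone (235 at an unadjusted p under 0.05) and 0 with a random block for arrays that share stage and orientation (204 at an unadjusted p under 0.05). Median centring in place of loess gave 16 higher and 89 lower clones, print-tip loess 17 and 25, and no normalisation within arrays 1 and 86.

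The arrays of stage 2 fell into pairs by dye orientation. Across the 1920 clones, which are not independent replicates, the log2 ratios of replicates 1 and 2, with males in Cy5, correlated at r = 0.673 (Spearman rho 0.518), and those of replicates 3 and 4, with males in Cy3, at r = 0.652 (rho 0.590). Between the orientations r was -0.0152 for replicates 1 and 3, -0.0770 for 1 and 4, 0.239 for 2 and 3 and 0.181 for 2 and 4. Among the 346 clones measured in both sexes on all arrays, r within an orientation was 0.704 and 0.834, and between orientations it lay from -0.0816 to 0.397. The mean ratio of replicates 1 and 2 and that of replicates 3 and 4 correlated at r = 0.130 (rho 0.0823), and 51.2% of clones had the same sign in both means. Arrays of 1 orientation share the dye assignment and each holds its own animals as the series describes them, so that dye and animals cannot be told apart. The residual of each spot about its clone's mean correlated at -0.0339 to 0.0596 between the 6 pairs of stage 2 arrays. The variance of the difference between 2 arrays was 1.67 to 7.70 times that given by duplicate spots. These values gave no sign of a repeated reading of 1 hybridisation, but the same RNA hybridised again could also give them. The 4 arrays were counted as 4 samples because the series describes them as biological replicates.

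The shape of the distribution differed as well. On replicates 1 to 4, males were over 2-fold higher in 5, 73, 90 and 149 clones and over 2-fold lower in 35, 107, 0 and 0 clones. Where males carried Cy5, the mean ratios of 2 arrays ran from -3.08 to 2.56. Where males carried Cy3, they ran from -0.65 to 3.49, so that no clone was 2-fold lower in males there. Of 70 clones with a mean log2 ratio under -1 with males in Cy5, 8 lay under -0.5 with males in Cy3, and their median was -1.41 in the one orientation and -0.26 in the other. Of 98 clones with a mean over 1 with males in Cy3, 20 lay over 0.5 with males in Cy5, where their median was 0.01.

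**Figure D3:**
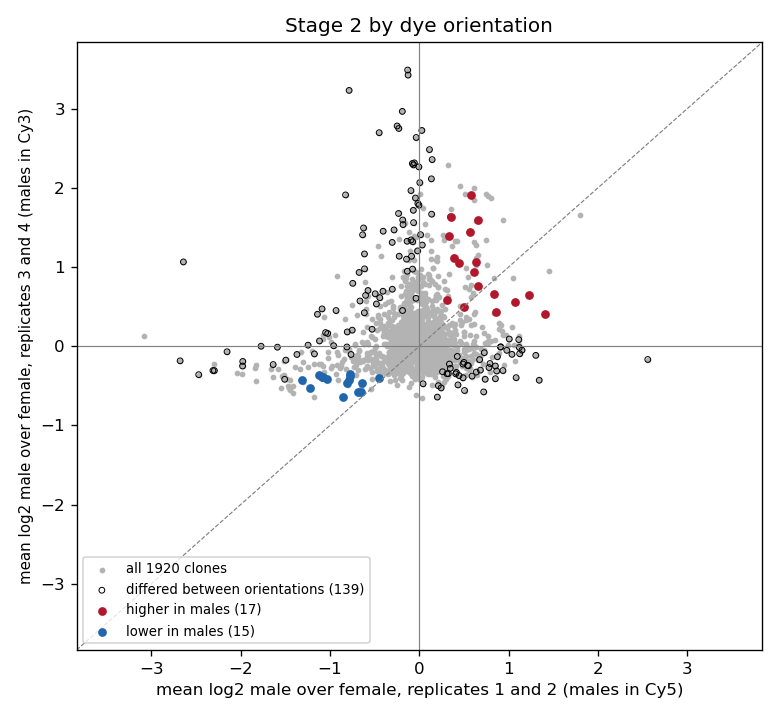
Mean log2 ratio of male over female at stage 2 on the arrays with males in Cy5 (horizontal axis) and on those with males in Cy3 (vertical axis) for 1920 clones. Coloured points are the 17 higher and 15 lower clones, black circles the 139 clones that differed between the orientations, and the dashed line marks equal values. The large ratios of either orientation lie mostly along an axis, near 0 in the other orientation, and no point lies below -0.65 on the vertical axis.

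The difference between the orientations was tested in a fit with 1 coefficient per stage and orientation. At stage 2, 139 clones differed (7.24%), 47 with a higher (2.45%) and 92 with a lower ratio (4.79%) where males carried Cy5, and in 108 of them the orientation means had opposite signs. Selection on the difference of these means favours opposite signs, and over all clones 51.2% had the same sign in both means. The same test gave 0, 10 and 99 clones at stages 1, 3 and 4, with 294, 279 and 380 at an unadjusted p under 0.05, and the numbers were not tested against each other. At stage 4 the test set 2 arrays with males in Cy5 against the 1 averaged replicate with males in Cy3, which was assumed to vary like the other groups. Of the 32 clones that differed between the sexes, 5 were among the 139. In this fit, chosen after the data were seen, the mean of both orientations differed from 0 in 205 of 1920 clones, 115 higher and 90 lower in males, and all 32 were among them. That mean comes from the same stage 2 arrays, so that the overlap is no separate evidence. The fit removes the gap between orientations from the error, so that its p-values measure the spread between arrays of 1 orientation only.

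Clones of 1 plate stood out among those higher in males. The clone identifiers carry a plate number, and plate 1 holds 96 of the 1920 clones but 6 of the 17 higher ones and 0 of the 15 lower. Its median log2 ratio was 0.18, 0.20, 0.18 and 0.18 on replicates 1 to 4, and 81 of its clones had a mean above 0. On the other plates 42 to 78 of 96 clones had a mean above 0, with 78 on plate 20, 76 on plate 2 and 75 on plate 19. The median of the clone means was 0.28 on plate 1 and 0.03 over the other plates. Of the 37 clones of plate 1 at an unadjusted p under 0.05, 36 were higher in males. At stages 1, 3 and 4 the median of the same clones was -0.07, -0.07 and -0.11. The clones of plate 1 were printed by 4 of the 16 pins, and on 4 of 4 of these pins their median exceeded that of the other clones of the pin, whose common median was 0.01. Plates 2 and 3 had medians of 0.20 and 0.17 on replicate 3 and of 0.23 and 0.19 on replicate 4, where males carried Cy3, but of 0.00273 and -0.00144 on replicate 1 and of 0.00802 and -0.0375 on replicate 2. What sets the clones of a plate apart was not tested. Without the clones of plate 1, 18 clones were called, 9 higher and 9 lower in males. That refit also changed the moderation and the adjustment for the remaining clones. The fall from 32 is thus not the number of calls on plate 1, which was 6.

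**Figure D4:**
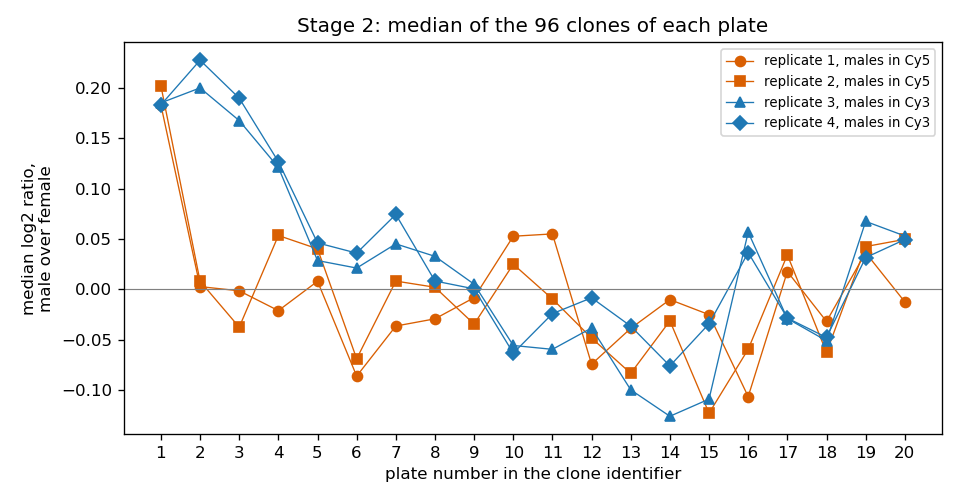
Median log2 ratio of male over female of the 96 clones of each plate (horizontal axis, plate number in the clone identifier) on the 4 stage 2 arrays (orange, males in Cy5; blue, males in Cy3). Plate 1 lies between 0.18 and 0.20 on all 4 arrays, whereas plates 2 and 3 lie between 0.17 and 0.23 with males in Cy3 and between -0.0375 and 0.00802 with males in Cy5.

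The clones that differed at stage 2 were then followed over the other stages, whose groups were likewise single males and females of 1 month each. Over the 17 higher clones the median ratio was -0.14, 0.02 and -0.11 at stages 1, 3 and 4, and 0 were called higher and 1 lower at stage 1 and none at stages 3 and 4. The 15 lower clones had medians of 0.80, 0.17 and 0.11 at these stages. At stage 1 these clones lay above 0 in 13 of 15 cases, and 9 were called higher in males and 0 lower. At that stage 4.95% of all clones were called, 4.48% higher and 0.469% lower. None of the 32 was called at stage 3, where 1.09% of all clones were, and limma called 0 clones at stage 4. The 4 stages share 1 estimate of the spread, so that their calls are not independent. Clone Myt01-014F10, lower in males at stage 2, averaged 1.08 ± 0.37 at stage 1 (SD, n = 4) with a limma adjusted p of 0.00484, from ratios of 1.37, 1.15, 0.54 and 1.24 on the 4 arrays. Clone Myt01-016D01 had -0.05 ± 0.04 at stage 1, 0.10 ± 0.14 at stage 3 (SD, n = 4 each) and -0.00170 ± 0.0645 at stage 4 (SD, n = 3).

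**Figure D5:**
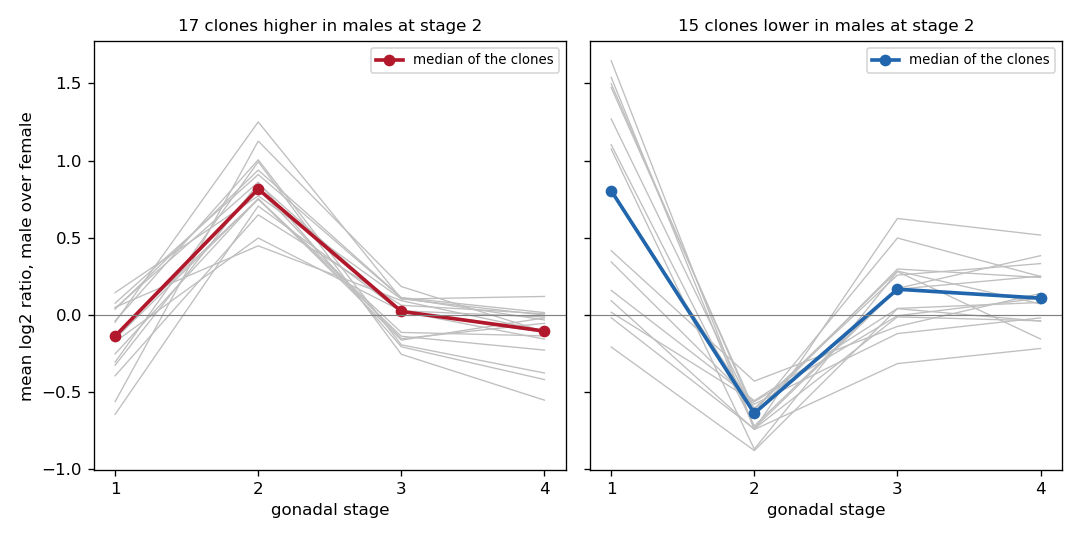
Mean log2 ratio of male over female (vertical axis) at gonadal stages 1 to 4 for the 17 clones higher and the 15 clones lower in males at stage 2, with 1 grey line per clone and the median in colour. The clones were chosen at stage 2, so their values there are no finding. The median of the lower clones was 0.80 at stage 1, against -0.14 for the higher clones.

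Against the mean difference of stages 1, 3 and 4, the stage 2 difference departed in 113 clones (5.89%), 26 higher (1.35%) and 87 lower (4.53%), with limma and adjustment over all clones. Among the 113 were 30 of the 32 clones, and since both counts rest on the same stage 2 arrays this overlap is no separate evidence. Clone Myt01-013D02 had log2 ratios of -1.90, -3.04, -0.70 and -0.01 on stage 2 replicates 1 to 4. Its stage means were 1.95 ± 0.66 at stage 1, 2.45 ± 0.99 at stage 3 (SD, n = 4 each) and 1.62 ± 1.22 at stage 4 (SD, n = 3). The difference was -3.42 (SE 0.57, limma adjusted p = 0.00226), although the stage 2 mean itself, -1.41 ± 1.33 (SD, n = 4), did not pass the test against 0 (limma adjusted p = 0.156). This clone also differed between the dye orientations of stage 2 (limma adjusted p = 0.0463). In the authors' deposited log2 ratios, turned to male over female, its replicate 4 was 0.0110, so that the 4 arrays did not share 1 sign there. Clone Myt01-013H05 had -0.78, -2.31, -0.90 and -0.15 at stage 2 and a difference of -3.25 (SE 0.50, limma adjusted p = 0.00105), with a stage 2 mean of -1.04 ± 0.91 (SD, n = 4) that did not pass (limma adjusted p = 0.219).

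In the other direction, clone Myt01-002C05 had log2 ratios of 0.86, 1.24, 1.60 and 0.11 on the stage 2 arrays and means of -0.21, -0.71 and -0.47 at stages 1, 3 and 4. Its difference was 1.42 (SE 0.38, limma adjusted p = 0.0412), and the call ended without any of stage 2 replicates 1 to 3, stage 1 replicates 1, 3 and 4 or stage 3 replicates 1 to 3 (0.0601 to 0.148), with no background correction (0.0913), with median centring (0.0502) and with the random block for stage and orientation (0.176). The stage 2 mean itself, 0.95 ± 0.64 (SD, n = 4), did not pass (limma adjusted p = 0.155). Clone Myt01-001F06, of plate 1, had 0.13, 0.57, 1.67 and 1.60 on these arrays and means from -0.55 to -0.26 at the other stages. Its difference was 1.36 (SE 0.25, limma adjusted p = 0.00429). It was also 1 of the 17 clones higher at stage 2 (mean 0.99 ± 0.76, SD, n = 4; limma adjusted p = 0.0403) and 1 of the 139 that differed between orientations there (limma adjusted p = 0.0133).

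Against stage 1 alone, the stage 2 difference departed in 139 clones (7.24%), 34 higher (1.77%) and 105 lower (5.47%). Of the 105, 104 lay above 0 at stage 1 and 80 were called higher in males there (4.48% of all clones were), and all 105 lay below 0 at stage 2. The clones were selected on the difference of these same values, which favours such signs, so that the counts only describe them. Clone Myt01-006C06 had log2 ratios of -1.47, -2.51, -0.66 and -0.06 at stage 2 and a mean of 2.34 ± 0.34 at stage 1 (SD, n = 4), a difference of -3.51 (SE 0.52, limma adjusted p = 0.000962). Clone Myt01-007H10 had -0.75, -2.08, -0.85 and -0.33 at stage 2 and 2.36 ± 0.31 at stage 1 (SD, n = 4), a difference of -3.37 (SE 0.48, limma adjusted p = 0.000735). In both, replicate 2 was the lowest and replicate 4 the closest to 0 of the stage 2 arrays, and neither stage 2 mean passed the test against 0 (limma adjusted p = 0.134 for Myt01-006C06 and 0.155 for Myt01-007H10).

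Clone Myt01-005F09 ran the other way, with 0.98, 2.62, 1.88 and 1.44 at stage 2 and -1.45 ± 0.80 at stage 1 (SD, n = 4). Both sexes were above background on all stage 2 arrays, and its stage 2 mean of 1.73 ± 0.70 (SD, n = 4) was the largest of all 1920 clones but did not pass the test against 0 (limma adjusted p = 0.175). The difference from stage 1 was 3.18 (SE 0.89, limma adjusted p = 0.0486), and the call ended without any array of stage 1 or 2 and without stage 3 replicate 1 or 3 (0.0506 to 0.125), and also with median centring (0.0999), print-tip loess (0.121), scaling between arrays (0.0579), no background correction (0.0515), all 16 arrays as separate replicates (0.0684) and the random block (0.161). Clone Myt01-017H09 had 0.29, 1.58, 1.30 and 1.89 at stage 2 and -1.66 ± 1.15 at stage 1 (SD, n = 4), a difference of 2.93 (SE 0.70, limma adjusted p = 0.0199), which did not hold without stage 1 replicates 2 or 3 or stage 2 replicates 2 or 4 (0.0541 to 0.0680), with median centring (0.0872), with array weights (0.0566) or with the random block (0.0658). Its stage 2 mean of 1.26 ± 0.70 (SD, n = 4) did not pass the test against 0 (limma adjusted p = 0.202).

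These departures depend on the direction of the stage 2 ratios. Across clones, each stage 2 array correlated below 0 with each stage 1 array (16 of 16 pairs), with r from -0.574 to -0.0598. With stage 3 arrays r lay from -0.287 to 0.128, below 0 in 12 of 16 pairs, and with stage 4 arrays from -0.298 to -0.0337, below 0 in 16 of 16. Replicates 2 and 4 of stage 4, averaged in the fit, were counted apart here. The labels give the dye of each sex on every array, and the directions were kept as labelled. When the sign of the stage 2 ratios was turned, limma called 0 clones against the mean of the other stages and 0 against stage 1, with 197 and 171 at an unadjusted p under 0.05. The 32 clones that differed between the sexes at stage 2 are the same with either sign, with 15 higher and 17 lower when it is turned.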

How the data were processed

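Per spot, the scanner output deposited by the authors (GenePix) gives the mean foreground intensity and the median local background intensity of both channels, on a linear scale and without normalisation. A value table, also deposited, gives the authors' log2 ratio of every spot. Compared with the scanner values it ran as female over male (r with male over female from -1.00 to -0.930, column medians -0.0207 to 0.0110). It served as an alternative, since how it was normalised is only outlined in the methods (offset background correction and loess). The submitters' processing notes name limma, with no version.

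Background correction used normexp (offset 50) and normalisation within arrays used loess, with blank and alignment spots given no weight (limma 3.58.1, R 4.3.3). Ratios were oriented as male over female from the labels, duplicate spots were averaged and all clones were kept. One coefficient per stage was fitted over 15 replicates (stage 4 replicates 2 and 4 were closer than duplicate-spot noise allows for separate samples and counted as 1), with 11 residual degrees of freedom and two-sided tests. The fit was tested on simulated data. The simulated noise was independent between arrays, with the same SD at all stages for a clone and no effect of dye orientation. It therefore cannot give the error rate in these data. The number of arrays limits the precision. For fold bounds, channels were normalised by loess and Aquantile.

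The comparisons, lists and members were chosen with earlier results of these data known. Named are at most 2 clones higher and 2 lower per comparison, those with the largest log2 value among those past the threshold of 0.05 with 1 sign on all 4 stage 2 arrays. Gene lists and cell type markers fixed for the study could not be applied without gene names. The alternatives were other background corrections, normalisations, filters, weights and blocks, the value table and leaving out each replicate.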

Additional observations from a re-analysis of the deposited data

Results flagged for a closer look

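The difference between the sexes was tested against that of other stages. It departed at stage 2 from the mean of stages 1, 3 and 4 in 113 clones. The departures were 1.42 for Myt01-002C05, 1.36 for Myt01-001F06, -3.42 for Myt01-013D02 and -3.25 for Myt01-013H05, on the log2 scale. Against stage 1 alone it departed in 139 clones, by 3.18 for Myt01-005F09, 2.93 for Myt01-017H09, -3.51 for Myt01-006C06 and -3.37 for Myt01-007H10. None of these departures passed the test with the stage 2 ratios turned. In 19 groups of 4 values at stage 2 (the named clones and the measures of array quality), no array stood apart from the other 3 by Dixon's criterion. The alignment spots, which enter no comparison, had median log2 ratios of Cy5 over Cy3 from -0.27 to -0.04 on the 4 arrays, smaller in size than the 95th percentile of blank spots on the same arrays.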

How the results depend on the processing

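The 32 clones that differed between the sexes at stage 2 became 19 with no background correction, 2 with plain subtraction, 105 with median centring, 168 with spots kept apart, 17 with array weights, and 0 with the stage fitted alone or with a random block for arrays that share stage and orientation. Settings chosen after the data were seen gave 205 with 1 coefficient per stage and orientation, 119 with only the arrays with males in Cy5, 96 with only those with males in Cy3, 18 without plate 1 and 87 with no normalisation within arrays. Leaving out 1 replicate gave 1 to 41 clones. Among arrays of other stages, which enter through the shared spread, the lowest counts were 18 (leaving out replicate 4 of stage 1, or replicate 1 or 3 of stage 3), 20 (replicate 2 of stage 3) and 21 (replicate 1 of stage 4). The 113 and 139 departures from the other stages became 218 and 241 with spots kept apart, 61 and 79 with the random block, and 0 and 0 with the stage 2 ratios turned. Leaving out 1 replicate gave 86 to 129 and 109 to 157. With the ratios turned, the departure was -0.49 for Myt01-002C05, -0.62 for Myt01-001F06 and -0.28 for Myt01-005F09. Plain subtraction gave 48 clones that differed between orientations, against 139. The cause of these shifts was not tested. Every other alternative left these counts within 1.5 times. Arrays of different stages share only a replicate number: deviations from the stage means of same-numbered arrays correlated at -0.591 to 0.406, and 4 of 16 arrays were closest to an array of their own number. The fit with the replicate block gave 27, 113 and 133 clones, with limma adjusted p of 0.0689 for Myt01-002C05 and 0.0973 for Myt01-005F09. With the deposited value table the counts were 32, 116 and 137. For 581 clones neither sex was above background on any array, so that their ratios rest on no measured signal.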
